A study of Rattus norvegicus with 16 samples.

Results

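Havcr1, Lcn2 and Spp1 are transcripts widely used as markers of kidney tubule injury, and they were examined here in the kidneys and aortas of year-old rats that had breathed extra oxygen as newborns. The group was defined by gene name, and no measured value entered the rule, although earlier results of these data were known when it was chosen. Its members are the Ensembl gene identifiers ENSRNOG00000007243 (Havcr1), ENSRNOG00000013973 (Lcn2) and ENSRNOG00000043451 (Spp1), which are 3 of the 23918 identifiers in the files. All 3 were present, and all 3 passed the filter on low counts in both tissues. The files list identifiers without symbols, so the symbols are those given when the group was set.

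Havcr1 encodes KIM-1, a transmembrane glycoprotein that is scarce in the healthy kidney and appears on proximal tubule cells after ischemic or toxic injury, where it takes part in the uptake of dying cells. Lcn2 encodes NGAL, a small secreted lipocalin that binds iron-carrying siderophores and is made by neutrophils and, under stress, by the distal nephron. Spp1 encodes osteopontin, a secreted phosphoprotein that binds integrins and is made by tubule cells, macrophages and activated smooth muscle cells. In nephrology Havcr1 is read mainly as a proximal tubule marker, Lcn2 mainly as a distal one, and Spp1 as a marker of injured tubules that also appears where macrophages gather and tissue calcifies.

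Polyadenylated RNA was sequenced from wild type male Sprague-Dawley rats aged 1 year. Rats of the hyperoxia group were kept in 85% O2 from postnatal day 1 to 14 and then lived in room air, and rats of the RA group breathed room air throughout. The aorta (arch and thoracic part) and the kidney each gave 4 RA and 4 hyperoxia libraries, 16 in all. The labels give no animal numbers as such, although hyperoxia kidneys 1, 2 and 3 carry the same sample numbers as hyperoxia aortas 2, 3 and 4 and may come from the same rats. Libraries are numbered here within each group, and the p-values measure the spread between these libraries.

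The kidney libraries held between 25031895 and 26521837 counts. RA aortas had 33611534 to 47021612 and hyperoxia aortas 68643302 to 83929106, so that depth and exposure moved together in the aorta. Values are given as CPM, the rounded estimated count per 1000000 counts of its library. They are not corrected for transcript length, so levels are compared between libraries and never between genes. The study left out 1 hyperoxia kidney that its text does not name, and therefore all 8 kidneys were used and each result is also given where leaving out 1 kidney changed it. The labelled tissues could not be checked against marker genes, because no identifier could be matched to a marker's symbol. In bulk tissue, fewer cells of a type and less RNA per cell cannot be told apart.

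Havcr1 was close to the same low level in 6 of the 8 kidneys and several times higher in the other 2, one from each exposure group. The RA kidneys 1 to 4 held 5.79, 5.60, 5.14 and 20.8 CPM. The hyperoxia kidneys 1 to 4 held 6.76, 17.7, 5.01 and 7.47 CPM. RA kidney 4 was the highest of all and hyperoxia kidney 2 the next, and the groups overlapped fully, since the highest value was an RA kidney and the lowest a hyperoxia kidney. Group means were 9.34 ± 7.67 CPM for RA and 9.24 ± 5.73 CPM for hyperoxia (SD, 4 kidneys each). In edgeR's quasi-likelihood test over all genes, the log2 fold change of hyperoxia over RA was −0.01 (SE 0.50, 95% interval −1.15 to 1.14, FDR 1.00). The interval therefore still holds changes of more than 2-fold either way. The mean log2 CPM differed by 0.09 (two-sided exact permutation test, p = 0.771, where 4 against 4 cannot go below 0.0286). The estimate rested on RA kidney 4: without it, the log2 fold change was 0.71 (SE 0.34, FDR 0.868 from edgeR).

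Lcn2 spanned a wider range in the hyperoxia kidneys than in the RA kidneys, and again hyperoxia kidney 2 stood at the top. The RA kidneys 1 to 4 held 7.61, 4.03, 8.16 and 6.31 CPM. The hyperoxia kidneys 1 to 4 held 1.94, 23.6, 3.58 and 7.51 CPM. Hyperoxia kidneys 1 and 3 were lower than every RA kidney, hyperoxia kidney 4 lay among them, and hyperoxia kidney 2 was above all of them. The lowest of these values came from 50 counts (95% exact Poisson interval 1.44 to 2.56 CPM) and the highest from 623 (21.7 to 25.5 CPM), so that counting error was small beside the distance between them. These intervals cover counting error only.

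The direction of the Lcn2 difference depended on how the kidneys were averaged. Group means were 6.53 ± 1.83 CPM for RA and 9.15 ± 9.89 CPM for hyperoxia (SD, 4 kidneys each), and edgeR gave a log2 fold change of 0.42 (SE 0.62, 95% interval −0.997 to 1.83, FDR 0.971). On the mean of log2 CPM the sign turned, with a difference of −0.09 (two-sided exact permutation test, p = 0.857). Hyperoxia kidney 2 alone set the sign in edgeR: without it, the log2 fold change was −0.50 (SE 0.43, FDR 0.738).

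Spp1 was low in 3 of the 4 hyperoxia kidneys and highest of all in the other. The RA kidneys 1 to 4 held 659, 456, 624 and 1060 CPM. The hyperoxia kidneys 1 to 4 held 198, 1612, 379 and 163 CPM. Hyperoxia kidneys 1, 3 and 4 were below every RA kidney and hyperoxia kidney 2 was above every RA kidney, so the groups overlapped only through that kidney. Group means were 700 ± 256 CPM for RA and 588 ± 689 CPM for hyperoxia (SD, 4 kidneys each). In edgeR the log2 fold change was −0.31 (SE 0.64, 95% interval −1.76 to 1.15, FDR 0.980). The mean log2 CPM of hyperoxia minus RA was −0.83 (two-sided exact permutation test, p = 0.314).

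**Figure D1:**
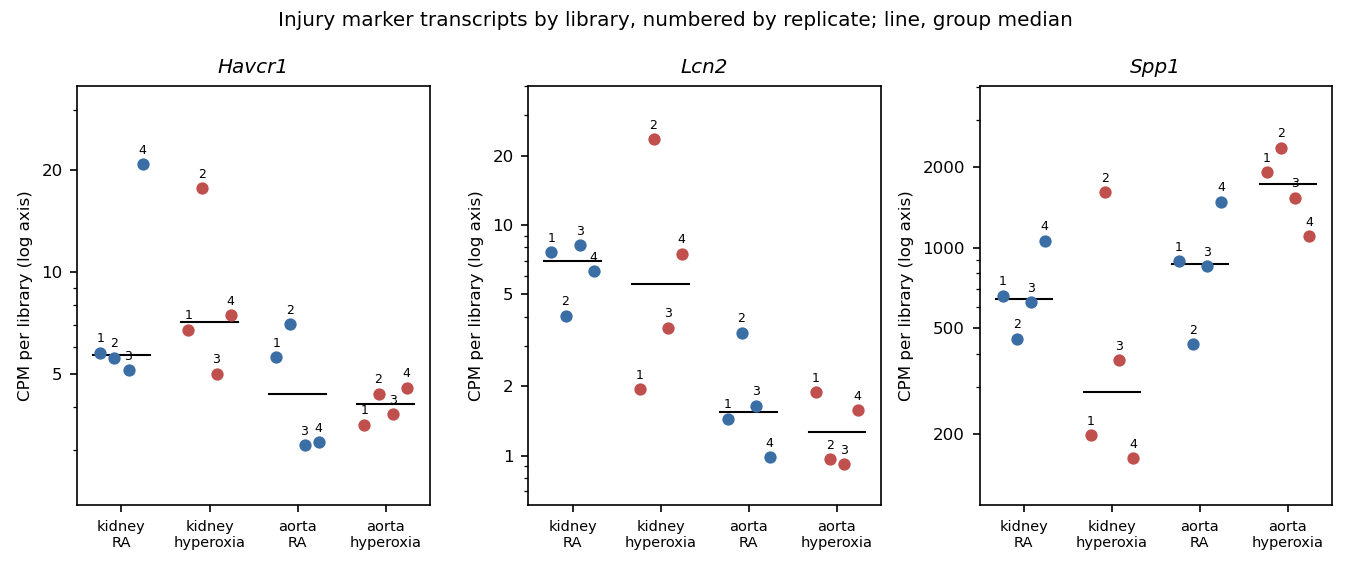
CPM of Havcr1, Lcn2 and Spp1 in each of the 16 libraries (log axis), by tissue and exposure group, with replicate numbers above the points and a line at the group median. Hyperoxia kidney 2 was the highest kidney for Lcn2 (23.6 CPM) and Spp1 (1612 CPM) and the next after RA kidney 4 for Havcr1 (17.7 CPM).

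None of the 3 transcripts passed in the kidney, where a call needed an FDR below 0.1 and the minimum fold change that the study set. Over the whole table edgeR called 0 of 15069 genes (0%), with 747 genes (4.96%) at an unadjusted p under 0.05. DESeq2 called 23 genes, and none of the 3 transcripts was among them. None of the 3 separated the exposure groups without overlap, against 1.84% of all genes tested.

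Leaving out hyperoxia kidney 2 changed the picture for Spp1. Over the other 7 kidneys, the RA values of 456 to 1060 CPM and the hyperoxia values of 163 to 379 CPM did not overlap. Because the groups had overlapped only through that kidney, leaving it out fixes this separation, which is given as a description with no test. Of all genes tested, 13.3% were likewise without overlap once that kidney was left out. The log2 fold change of Spp1 was −1.36 in edgeR (SE 0.38, 95% interval −2.25 to −0.47, FDR 0.354), which did not pass. DESeq2 over the same 7 kidneys also gave −1.36 (SE 0.36, FDR 0.0160), which did pass, as did 2.57% of the genes it tested. With DESeq2 and hyperoxia kidney 1, 3 or 4 left out instead, the log2 fold change of Spp1 was −0.04, −0.20 and −0.01 and did not pass.

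Havcr1 and Lcn2 did not pass in either tool over the 7 kidneys. Their log2 fold changes there were −0.40 (SE 0.50, FDR 0.816) and −0.50 (SE 0.43, FDR 0.738) in edgeR. All 3 estimates were thus below 0 without hyperoxia kidney 2, but only that of Spp1 had an interval that did not hold 0. The kidney was left out as one of 8 in turn, but it is singled out here for its own values, so the SEs and FDRs without it are not independent of that choice. The DESeq2 fits were added after the data had been seen.

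**Figure D2:**
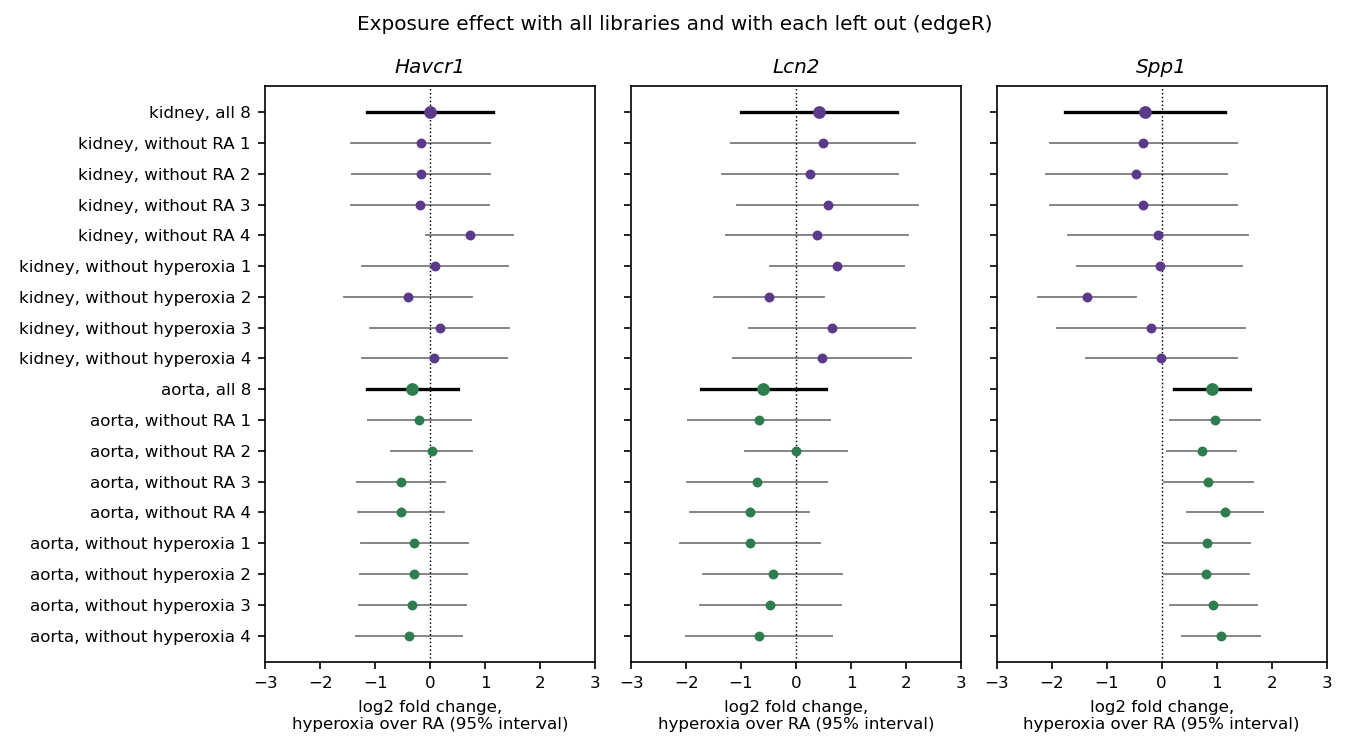
Log2 fold change of hyperoxia over RA (x axis) with its 95% interval from edgeR for each transcript, in the kidney (purple) and the aorta (green), with all 8 libraries (thick line) and with each library left out in turn (thin lines). Spp1 in the kidney moved from −0.31 to −1.36 without hyperoxia kidney 2, and Havcr1 in the kidney from −0.01 to 0.71 without RA kidney 4.

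The spread among kidneys of one group was large for all 3 transcripts. Among RA kidneys the SD of log2 CPM was 0.96 for Havcr1, 0.46 for Lcn2 and 0.50 for Spp1, against a median of 0.17 over all genes tested. A larger SD was seen for 2.43%, 12.3% and 10.1% of genes in that order. Havcr1 was thus among the most variable transcripts of the unexposed kidney, by the value of RA kidney 4.

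Among hyperoxia kidneys the order changed. The SD of log2 CPM was 0.78 for Havcr1, 1.54 for Lcn2 and 1.497 for Spp1, against a median of 0.28 over all genes tested, and 9.60%, 1.84% and 1.95% of genes had a larger SD. The highest kidney exceeded the lowest 3.53-fold for Havcr1, 12.1-fold for Lcn2 and 9.90-fold for Spp1. Among RA kidneys these ratios were 4.05, 2.02 and 2.32. Lcn2 and Spp1 therefore spread more widely in hyperoxia and Havcr1 did not, although the difference in spread was not tested. Without hyperoxia kidney 2 the SD of log2 CPM was 0.30 for Havcr1, 0.97 for Lcn2 and 0.64 for Spp1 (n = 3), with a median of 0.22 over all genes. Lcn2 and Spp1 remained more variable than in RA in those 3 kidneys, and 5.57% and 13.8% of genes had a larger SD. The median over all genes was also higher than in RA (0.22 against 0.17).

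**Figure D3:**
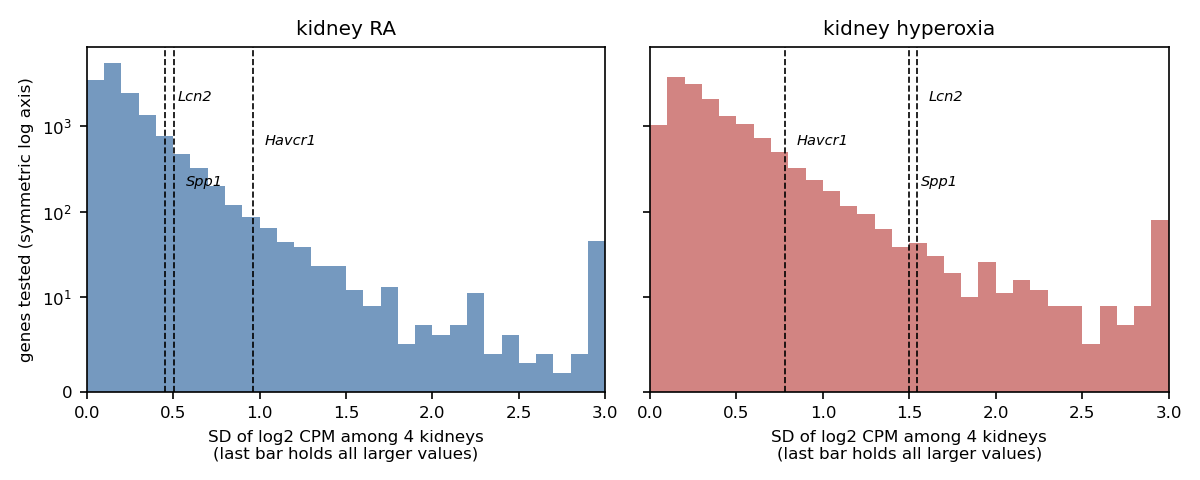
Number of genes tested (y axis, symmetric log) by the SD of log2 CPM among the 4 kidneys of a group (x axis, the last bar holding all larger values), with dashed lines at the 3 transcripts. Havcr1 lies far out among RA kidneys (0.96), and Lcn2 (1.54) and Spp1 (1.497) lie far out among hyperoxia kidneys.

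Set against the median of the other 7 kidneys, hyperoxia kidney 2 was higher by 1.61 for Havcr1, 1.90 for Lcn2 and 1.82 for Spp1 on the log2 scale, which is 3.05-fold, 3.73-fold and 3.53-fold. Between 0.790% and 1.28% of genes departed further in that kidney, in either direction. It was the only kidney in which all 3 transcripts stood more than 1 log2 unit above the median of the other 7.

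RA kidney 4 showed a different combination. Its Havcr1 was higher by 1.84 and its Spp1 by 1.22 on the log2 scale, whereas its Lcn2 was at −0.25. A kidney of an unexposed rat thus held the most Havcr1 of all 8, with Lcn2 within the range of its group.

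The low values were not shared by the 3 transcripts either. Hyperoxia kidney 1 was at −1.94 for Lcn2 and −1.66 for Spp1 but at 0.22 for Havcr1. Hyperoxia kidney 4 was at −1.94 for Spp1 but at 0.37 for Havcr1 and 0.25 for Lcn2. Hyperoxia kidney 3 was below the median of the others for all 3, at −0.43, −1.06 and −0.72, and was the lowest kidney for Havcr1 only.

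Over the whole table, hyperoxia kidneys 2, 3 and 4 had the largest shares of genes outside the range of the other 7 kidneys, and hyperoxia kidney 1 did not. Every gene has a highest and a lowest kidney, so such genes occur in all kidneys even where none stands apart. No chance level was computed for the shares. In hyperoxia kidneys 2 and 3, 43.6% and 45.2% of genes lay outside the range of the other 7 kidneys, against 30.9% and 18.0% in hyperoxia kidneys 4 and 1 and 11.8% to 19.7% in RA kidneys. The shares were taken on CPM from library totals, without the scaling factors of edgeR. That factor was highest in hyperoxia kidney 2 (1.14) and lowest in hyperoxia kidney 3 (0.91), with 0.93 to 1.06 in the others. How far these features of the libraries bear on the 3 transcripts was not tested.

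**Figure D4:**
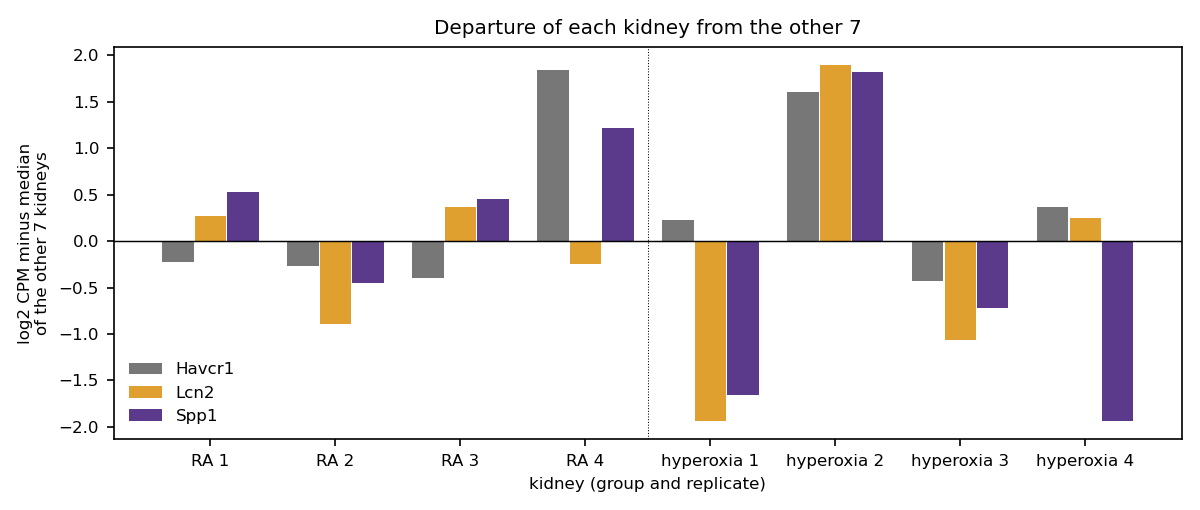
Log2 CPM of each transcript in each kidney minus the median of the other 7 kidneys (bars from 0). Hyperoxia kidney 2 is high for all 3 (1.61, 1.90 and 1.82), RA kidney 4 for Havcr1 (1.84) and Spp1 (1.22) only, and hyperoxia kidneys 1 and 4 are low for Spp1 (−1.66 and −1.94).

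Across the 8 kidneys, Lcn2 and Spp1 had the closest relation, with Pearson's r = 0.68 (exact permutation p = 0.0575, 0.156 after Benjamini-Hochberg adjustment over the 3 pairs) and Spearman's rho = 0.62 (exact permutation p = 0.115, adjusted 0.345) on log2 CPM. For deviations from the group means r was 0.73 (exact permutation p = 0.0528). With library totals scaled by the factors of edgeR, r was lower, at 0.63 (exact permutation p = 0.0861). Without hyperoxia kidneys 1 and 2, the farthest from the median of Lcn2, r was 0.08. The relation over all 8 thus rested on those kidneys, although leaving out the extremes of one measure narrows its range and by itself can lower r. Leaving out hyperoxia kidney 4 alone gave r = 0.93 (exact permutation p = 0.00556), the highest value when 1 kidney was left out.

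The relations of Havcr1 to the other transcripts did not pass either. With Spp1 its r was 0.60 (exact permutation p = 0.104, adjusted 0.156), or 0.68 for deviations from the group means (exact permutation p = 0.0622), and its rho 0.36 (exact permutation p = 0.389, adjusted 0.582). With Lcn2 its r was 0.51 (exact permutation p = 0.221, adjusted 0.221) and its rho 0.24 (exact permutation p = 0.582, adjusted 0.582). With library totals scaled by the factors of edgeR, r was lower, at 0.53 with Spp1 (exact permutation p = 0.166) and 0.41 with Lcn2 (exact permutation p = 0.308). Without RA kidney 4 and hyperoxia kidney 2, its 2 highest kidneys, r was −0.82 with Spp1 (exact permutation p = 0.0597, adjusted 0.179, n = 6) and −0.10 with Lcn2. Those 2 kidneys were picked as the extremes of Havcr1, and leaving them out narrows its range and by itself can change r.

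The genes whose kidney profile was most like each transcript were therefore others. Over the 8 kidneys and 15068 genes, r was 0.98 between Havcr1 and ENSRNOG00000010048 (104 to 125 CPM), 0.98 between Lcn2 and ENSRNOG00000028703 (8.48 to 19.0 CPM) and 0.99 between Spp1 and ENSRNOG00000014330 (16.3 to 25.03 CPM). All 3 of these were highest in hyperoxia kidney 2. Each was picked for its likeness to a transcript that was highest or next highest there, so that peak is no separate result. ENSRNOG00000010048 held 125 CPM in hyperoxia kidney 2 and 124 CPM in RA kidney 4, against 104 to 111 CPM in the other kidneys. An r over 0.9 was reached by 91 genes with Havcr1, 162 with Lcn2 and 249 with Spp1, and none of the 3 was among the genes of another. Each named gene was picked for the highest of 15068 r values over 8 kidneys, and no chance level was computed for such a pick. The points share their libraries and their scaling, and the values are descriptions.

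Because all 3 transcripts were the highest or the next highest in the same kidney, the sequences upstream of their start sites are shown, 250 bases each, from RefSeq on the rat assembly GRCr8. All 3 were found by symbol in the promoter table. They lie at chr10:31629528-31629777 on the plus strand (Havcr1), chr3:36081781-36082030 on the minus strand (Lcn2) and chr14:5619805-5620054 on the minus strand (Spp1). Each is written 5′ to 3′ along the gene, in lower case with any match to the motifs searched in capitals.
Havcr1: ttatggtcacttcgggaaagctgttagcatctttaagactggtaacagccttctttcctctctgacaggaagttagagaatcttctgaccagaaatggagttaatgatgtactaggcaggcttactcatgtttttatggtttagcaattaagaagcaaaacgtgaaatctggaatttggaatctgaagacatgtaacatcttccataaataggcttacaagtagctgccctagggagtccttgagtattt
Lcn2: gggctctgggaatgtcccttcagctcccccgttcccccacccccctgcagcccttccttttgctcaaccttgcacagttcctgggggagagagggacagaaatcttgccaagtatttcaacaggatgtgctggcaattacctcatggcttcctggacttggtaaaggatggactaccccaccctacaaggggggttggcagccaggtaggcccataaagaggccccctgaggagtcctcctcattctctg
Spp1: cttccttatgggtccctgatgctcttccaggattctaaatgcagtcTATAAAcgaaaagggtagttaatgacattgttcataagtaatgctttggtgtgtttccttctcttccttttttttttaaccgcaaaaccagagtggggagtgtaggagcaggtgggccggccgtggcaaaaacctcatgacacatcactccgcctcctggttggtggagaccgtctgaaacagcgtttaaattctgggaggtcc

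On both strands, 5 motifs were searched at any distance from the start site. These were the TATA box letters TATAAA, the AP-1 element TGANTCA, the STAT element TTCNNNGAA, the element CCAAT, and the Sp1 element GGGCGG. The only match was a TATAAA in the Spp1 window, 204 bases before the start site. Among 33465 promoter windows of the same length, TATAAA was in 12.9%, the AP-1 element in 6.34%, the STAT element in 7.67%, CCAAT in 34.0% and the Sp1 element in 30.5%. The windows had GC contents of 39.2% (Havcr1), 57.2% (Lcn2) and 46.8% (Spp1). A match describes letters in the window and no factor was measured.

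In the aorta, the other tissue sequenced, none of the 3 transcripts was called between the exposure groups. Havcr1 held 5.61, 7.02, 3.09 and 3.15 CPM in RA aortas 1 to 4. It held 3.55, 4.39, 3.81 and 4.56 CPM in hyperoxia aortas 1 to 4. The hyperoxia aortas lay close together between the lower and the higher pair of RA aortas. The log2 fold change was −0.33 in edgeR (SE 0.37, 95% interval −1.16 to 0.50, FDR 0.790; two-sided exact permutation test of mean log2 CPM, p = 0.686).

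Lcn2 held 1.45, 3.42, 1.65 and 0.982 CPM in RA aortas 1 to 4. It held 1.88, 0.965, 0.916 and 1.57 CPM in hyperoxia aortas 1 to 4. RA aorta 2 was the highest and the groups overlapped. The log2 fold change was −0.59 in edgeR (SE 0.50, 95% interval −1.73 to 0.54, FDR 0.714; two-sided exact permutation test, p = 0.486). Without RA aorta 2 the log2 fold changes were 0.02 for Havcr1 and 0.01 for Lcn2, so both estimates rested on that library.

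Spp1 in the aorta gave the smallest exposure p of the 3 transcripts when all libraries were used. It held 888, 434, 853 and 1483 CPM in RA aortas 1 to 4. It held 1911, 2369, 1539 and 1105 CPM in hyperoxia aortas 1 to 4. Hyperoxia aortas 1, 2 and 3 were above every RA aorta, and the groups overlapped because hyperoxia aorta 4 was below RA aorta 4. Group means were 915 ± 431 CPM for RA and 1731 ± 538 CPM for hyperoxia (SD, 4 aortas each). In edgeR the log2 fold change was 0.92 (SE 0.31, 95% interval 0.22 to 1.61), with an FDR of 0.510. The FDR was 0.137 with DESeq2, and the two-sided exact permutation test of mean log2 CPM gave p = 0.0571.

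The Spp1 difference in the aorta did not pass the thresholds, and 2.86% of the genes had a smaller p in the same fit. It lay between 0.73 and 1.15 when each aorta was left out in turn, and at 0.91 with all aortas thinned to the smallest total, a setting chosen after seeing the data. In the aorta 0.0199% of genes passed both thresholds in edgeR (3 of 15086), and none of the 3 transcripts was among them. The exposure groups did not overlap for 3.65% of genes and for none of the 3 transcripts.

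The difference between the exposure effects in the 2 tissues was tested directly over all 16 libraries. For Spp1 the kidney effect minus the aorta effect was −1.26 on the log2 scale (SE 0.77, 95% interval −2.89 to 0.37, FDR 0.699 in edgeR). For Havcr1 it was 0.27 (SE 0.65, FDR 0.943) and for Lcn2 0.95 (SE 0.84, FDR 0.782). None passed. The whole table gave 0 of 16025 genes (0%) in edgeR, with 1277 at an unadjusted p under 0.05, and 87 in DESeq2.

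Here too hyperoxia kidney 2 mattered most for Spp1. Without it the Spp1 interaction was −2.34 (SE 0.53, 95% interval −3.48 to −1.20), with 0.166% of 16274 genes at a smaller p, yet an FDR of 0.317. That kidney was singled out for its own values, so this estimate, its interval and its rank are not independent of that choice. In the aorta that carries the same sample number as that kidney, hyperoxia aorta 3, the 3 transcripts were not raised together: Havcr1 was at 3.81, Lcn2 at 0.916 and Spp1 at 1539 CPM. Its Lcn2 was the lowest of all 8 aortas. The 95% exact Poisson interval of that value (0.71 to 1.16 CPM) held hyperoxia aorta 2 (0.965 CPM) and RA aorta 4 (0.982 CPM). Its Havcr1 and Spp1 lay within the range of the other hyperoxia aortas, and its Spp1 was above every RA aorta.

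In RA rats, Lcn2 was higher in the kidney than in the aorta. The RA kidneys (4.03 to 8.16 CPM) did not overlap the RA aortas (0.982 to 3.42 CPM), and the log2 fold change of kidney over aorta was 1.55 in edgeR (SE 0.46, 95% interval 0.51 to 2.59, FDR 0.0150). It passed with each RA library left out in turn, between 1.30 and 2.11. Differences between tissues were the rule: 69.3% of genes passed in this comparison and 60.2% did not overlap between the tissues.

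Havcr1 was not called between kidney and aorta in RA rats. Its log2 fold change of kidney over aorta was 0.70 (SE 0.54, 95% interval −0.52 to 1.92, FDR 0.276 in edgeR), and −0.01 without RA kidney 4. Spp1 was at −0.54 (SE 0.33, 95% interval −1.28 to 0.20, FDR 0.171), and its RA kidneys and RA aortas overlapped. Spp1 passed, lower in the kidney, without RA kidney 4 (−0.77, FDR 0.0729) or without RA aorta 2 (−0.75, FDR 0.0499). The labels give no sequencing run, so any difference in sequencing between the tissues cannot be told apart from tissue. The comparison also shares its RA libraries with the exposure comparisons above.

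Part of the Havcr1 count may be shared with near copies. The deposited values of Havcr1 and Spp1 were not whole numbers in any of the 16 libraries, and those of Lcn2 were whole in all 16. How the fractions arose was not tested, and they were not particular to Havcr1. RefSeq annotates Havcr1-like genes and a Havcr1 pseudogene in the rat, so the Havcr1 level is uncertain to the extent that reads were divided among them, which was not tested.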

How the data were processed

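RNA-seq was done on polyA-selected RNA of aorta and kidney, paired-end, by BGI Genomics. The authors used kallisto for read assignment (rat build rn6.0) and tximport for the sums per gene, and the values they deposited are estimated counts that were not normalized. Tool versions and the annotation release are not given in the sources used here. Values were rounded here, since 24.3% to 28.8% of them per library had a fractional part.

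CPM was the rounded count over the library total, and log2 CPM used a prior count of 0.5. Hyperoxia and RA were compared within each tissue with edgeR 4.0.16 in R 4.3.3 (TMM, filter by expression, quasi-likelihood test, Benjamini-Hochberg FDR over all genes tested, adjusted p-values called FDR), RA kidney with RA aorta likewise, and the interaction over all 16 libraries. A gene was called when its FDR was below 0.1 and it changed more than 1.25-fold, the thresholds of the study. SEs of log2 fold changes come from the F statistics. Exact permutation tests used mean log2 CPM. Alternatives were DESeq2 1.42.0, RLE scaling, library totals only, no filter, and each library left out, with DESeq2 without each hyperoxia kidney, thinned aortas and a block on shared sample numbers added after seeing the data. The scripts were tested on simulated data.

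The transcripts were chosen by name, and they and the gene lists were chosen with earlier results of these data known, and all 3 transcripts are reported in every library. The gene with the highest r to each is named by identifier. The 11 lists of cell type and pathway genes (101 symbols) are void and not reported, because 0 identifiers could be matched to a symbol. Depth was 25031895 to 83929106 counts per library, and 4 libraries per group limit the precision more than counting error does.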

Additional observations from a re-analysis of the deposited data

Results flagged for a closer look

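In 2 of 12 sets of 4 libraries, 1 library lay far from the other 3 by Dixon's criterion for 4 values. The 12 sets were 3 transcripts in 4 groups. Chance marks about 1 in 20 sets of normally distributed values, or 0.6 of 12. The criterion was applied to CPM, and neither the shape of its distribution nor log2 CPM was tested. Havcr1 in RA kidney 4 was at 20.8 CPM, with the other RA kidneys between 5.14 and 5.79 CPM, a gap of 0.96 of the group's range. Spp1 in hyperoxia kidney 2 was at 1612 CPM, with the other hyperoxia kidneys between 163 and 379 CPM, a gap of 0.85 of the range.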

How the results depend on the processing

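No exposure difference of the 3 transcripts passed in edgeR under another scaling (RLE, library totals only), without the filter, or with any 1 library left out. With the Spp1 call in DESeq2 without hyperoxia kidney 2 (−1.36) as the exception, none passed in DESeq2 where it was run. DESeq2 was run with all libraries and with each hyperoxia kidney left out, but not with an RA kidney or an aorta left out. With 1 library left out in turn, the kidney log2 fold change ran from −0.40 to 0.71 for Havcr1, −0.50 to 0.74 for Lcn2 and −1.36 to −0.0044 for Spp1. In the aorta it ran from −0.53 to 0.02, −0.84 to 0.01 and 0.73 to 1.15, and between tissues in RA from −0.01 to 1.03, 1.30 to 2.11 and −0.77 to −0.30. The interaction ran from −0.16 to 0.97, 0.01 to 1.27 and −2.34 to −0.96. The sign turned for Havcr1 in the kidney without RA kidney 4 (0.71) or hyperoxia kidneys 1, 3 and 4 (0.084, 0.17 and 0.069, and with DESeq2 0.084, 0.16 and 0.066), and for Lcn2 without hyperoxia kidney 2 (−0.50 in both tools). It also turned without RA aorta 2 in the aorta (Havcr1 0.023, Lcn2 0.0062) and in the Havcr1 interaction (−0.062), without hyperoxia kidney 2 in the Havcr1 interaction (−0.16), and without RA kidney 4 for Havcr1 between tissues (−0.0055). The causes were not tested.

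Genes called rose with DESeq2 to 23 in the kidney, 170 in the aorta and 87 for the interaction, and in edgeR without the filter to 8, or with thinned aortas to 7, in the aorta. In the kidney the DESeq2 count depended most on hyperoxia kidney 2: it was 390 without that kidney (147 higher and 243 lower in hyperoxia), 132 without hyperoxia kidney 4, and 13 and 23 without hyperoxia kidneys 1 and 3. The thinned, blocked and DESeq2 leave-out fits were chosen after seeing the data. With 1 library left out, edgeR called 0 in the kidney, 2 to 15 in the aorta (15 without RA aorta 4), 10324 to 11059 between tissues and 0 to 2 for the interaction. Pearson's r over the kidneys ran from 0.15 to 0.69 (Havcr1 and Lcn2), 0.39 to 0.71 (Havcr1 and Spp1) and 0.44 to 0.93 (Lcn2 and Spp1). No paired analysis was possible within a tissue because its RA and hyperoxia libraries share no sample number. For the interaction, a replicate block on the numbers that 3 hyperoxia kidneys and 3 hyperoxia aortas share gave 0.17 for Havcr1 (SE 0.79), 0.56 for Lcn2 (SE 0.89) and −1.24 for Spp1 (SE 0.71), with 0 genes called in edgeR (1806 at an unadjusted p under 0.05). Deviations from the group means correlated at 0.062, 8.71e-05 and 0.020 in these pairs over 16025 genes, so the libraries were not shown to be paired beyond the number. Lcn2, with 33 to 623 counts per library, had the least depth.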

Other observations

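Across the 8 aortas, Lcn2 and Spp1 ran in opposite directions, with Pearson's r = −0.77 (exact permutation p = 0.0248, 0.0744 after adjustment over the 3 pairs) and Spearman's rho = −0.57 (exact permutation p = 0.151, adjusted 0.453). Without RA aorta 2 and hyperoxia aorta 3, which held the highest and the lowest Lcn2, r was −0.44 (exact permutation p = 0.361). Over all 8 aortas, r of the deviations from the group means was −0.78 (exact permutation p = 0.0230). Leaving out the extremes narrows the range of Lcn2 and by itself can weaken r. Havcr1 was at r = 0.57 with Lcn2 (exact permutation p = 0.140) and at −0.60 with Spp1 (exact permutation p = 0.116) over the aortas, and at −0.14 and 0.36 without RA aortas 1 and 2. Among the hyperoxia aortas, Havcr1 varied less than most genes: its SD of log2 CPM was 0.17, and 82.5% of genes had a larger one.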
